A study of Mus musculus with 6 samples.

Results

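The genes described here are the B7 ligands and the CD28 family receptors of mouse B lymphoma cells. They were chosen by gene symbol: the ligand genes Cd80, Cd86, Icosl, Cd274, Pdcd1lg2, Cd276 and Vtcn1, and the receptor genes Cd28, Ctla4 and Btla. All 10 were measured, each by 1 probe set, among 18784 genes. The study looked for modifiers of the ABT-737 response, a drug that blocks BCL-2 proteins, in lymphomas driven by MYC, and no drug treatment is named on these arrays. The tested cells carried the short hairpin RNA Dhx9.1241, named for the RNA and DNA helicase gene Dhx9 (3 arrays), and the control cells carried Rluc.713, named for Renilla luciferase (3 arrays). Both groups were Arf-null lymphomas with the transgenes Eu-myc, which drives MYC from an immunoglobulin heavy chain enhancer in B lineage cells, and Bcl-2, and both were grown on irradiated Arf-/- mouse embryonic fibroblasts. There was 1 hairpin for each group, and the labels do not say whether the 3 arrays of a group came from separate cultures, so the errors given measure the spread between arrays, which may be technical.

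B7 ligands are surface proteins of antigen-presenting cells, B cells among them, and their receptors are found mainly on T cells. CD80 and CD86 bind the activating receptor CD28 and, more tightly, the inhibitory receptor CTLA4. ICOSL engages ICOS on helper T cells, PD-L1 (Cd274) and PD-L2 (Pdcd1lg2) engage the inhibitory receptor PD-1, and CD80 can also bind PD-L1. B7-H3 (Cd276) and B7-H4 (Vtcn1) are more distant members with less settled receptors, and BTLA is an inhibitory receptor that B cells themselves carry and that binds HVEM.

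The family was proposed with the hairpin difference of Cd80 in view. The levels and differences of its members between hairpins are therefore given as a description, without p-values, and so is whether the model called a member; they support nothing by themselves. Levels are log2 expression values of 1 probe set, so levels of different genes are not compared. Differences are log2 values of Dhx9.1241 minus Rluc.713, with a 95% interval from the limma model across all genes. The model draws each SE and interval toward the spread of all genes. They can therefore be narrower or wider than the gene's own arrays give.

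Cd80 was the member that differed most. Its level was 10.45, 10.37 and 10.49 on the log2 scale on the 3 Dhx9.1241 arrays, against 9.32, 9.59 and 9.63 on the 3 Rluc.713 arrays. All 3 Dhx9.1241 arrays lay above all 3 controls. The mean was 10.44 ± 0.058 in Dhx9.1241 and 9.51 ± 0.168 in Rluc.713 (SD, n = 3 each), a log2 difference of 0.92 (SE 0.084, 95% interval 0.73 to 1.12), or 1.90-fold. Because these are bulk samples, a change in the number of cells of a type and a change in RNA per cell cannot be told apart.

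Of the 10 members, Cd80 was called higher at an adjusted p under 0.05, 0 were called lower and 9 were not called. Over all 18784 genes 3.14% were called in either direction, 2.07% were called higher and 1.07% lower. The 95% interval of each of the other 9 members held 0. Their differences ran between -0.17 and 0.16, with a median of 0.0061, against a median of 0.0049 over all genes. Of the 10 members, 6 lay at or above the lower quartile of gene levels. Pdcd1lg2, Vtcn1, Cd28 and Ctla4 lay below it, and whether these dim genes were expressed was not tested. Groups of arrays did not overlap for 2 of the 10 members, Cd80 and Icosl, and did not overlap for 20.1% of all genes. Nothing is read from these shares, since the contrast was known when the family was chosen.

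**Figure D1:**
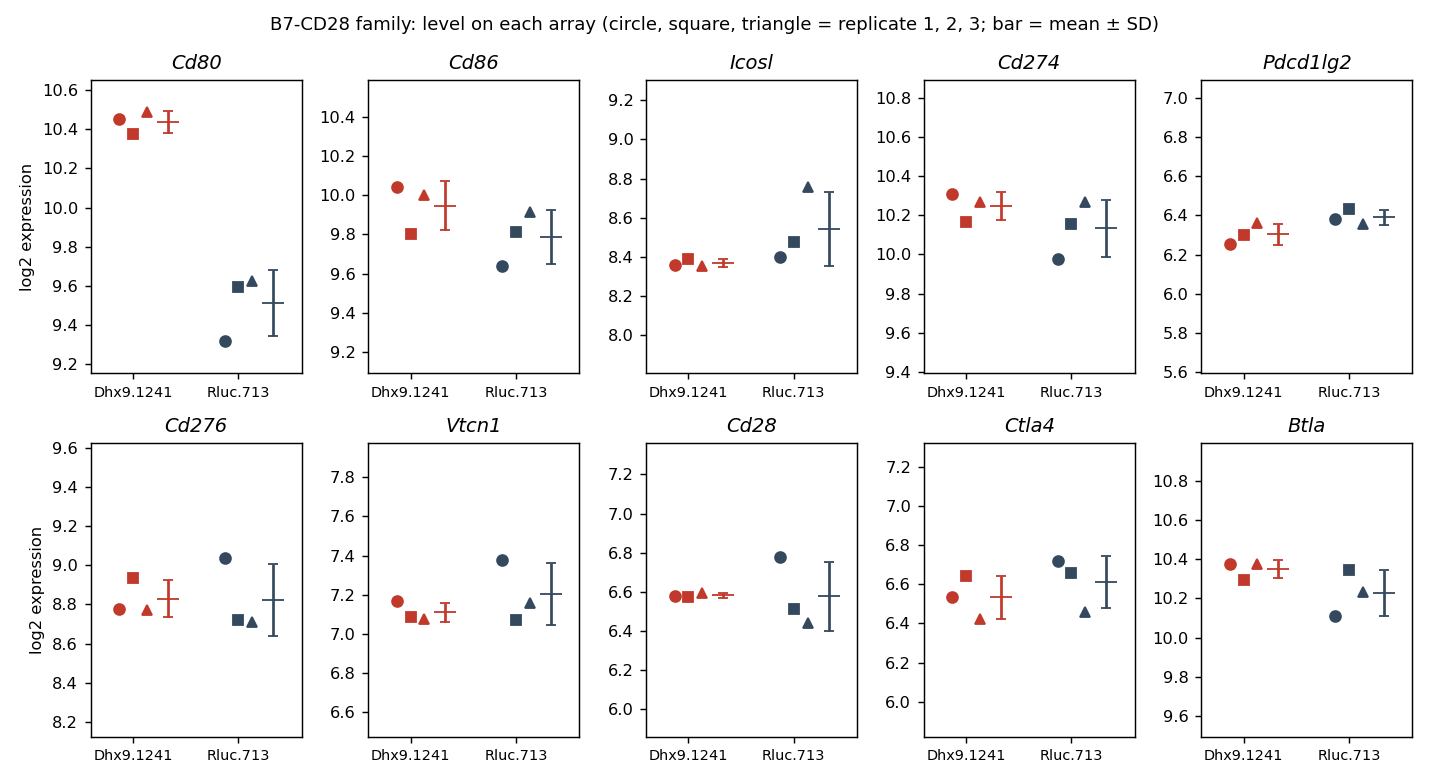
Level of each B7-CD28 gene on each array (y axis, log2 expression, each panel spanning the same height), with Dhx9.1241 in red at the left and Rluc.713 in grey-blue at the right of each panel; symbols are replicates 1, 2 and 3 and bars are the mean ± SD of 3 arrays. The Cd80 groups lie apart by 0.92, the Icosl groups lie apart narrowly in the other direction, and the groups of the other 8 genes overlap.

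Upstream sequences are shown for Cd80 and Icosl, the pair of members whose groups of arrays did not overlap, as for 20.1% of all genes. The Icosl groups lay apart only narrowly and Icosl was not called, so nothing is read from this choice. Each line gives the 250 bases before the transcript start in RefSeq's GRCm38.p6 annotation, 5′ to 3′ on the + strand. The Cd80 stretch is chr16:38458683-38458932 and the Icosl stretch is chr10:78069118-78069367. Capitals mark a match to a searched motif.
Cd80: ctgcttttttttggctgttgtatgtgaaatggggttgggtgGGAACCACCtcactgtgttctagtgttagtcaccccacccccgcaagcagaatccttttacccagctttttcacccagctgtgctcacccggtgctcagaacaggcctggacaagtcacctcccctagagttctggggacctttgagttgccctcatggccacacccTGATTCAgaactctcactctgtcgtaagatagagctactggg
Icosl: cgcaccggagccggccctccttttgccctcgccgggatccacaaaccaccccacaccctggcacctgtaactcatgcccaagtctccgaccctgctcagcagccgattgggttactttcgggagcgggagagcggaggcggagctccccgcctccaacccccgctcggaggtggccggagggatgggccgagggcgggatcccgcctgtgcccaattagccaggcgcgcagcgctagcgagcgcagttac

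The table held upstream sequences of 8 of the 10 members. On both strands, 6 short motifs were searched, settled after the sequences had been read. Among them were a shortened NF-kB motif GGNNNTTCC, a shortened interferon response motif GAAANNGAA, the STAT motif TTCNNNGAA and the E-box CACGTG. The rest were a loosened AP-1 motif TGANTCA and an ETS motif GAGGAAG, which is longer than the ETS core. The Cd80 stretch held 2 matches that do not overlap. The first capitals, 209 bases before the start, match the NF-kB motif on the opposite strand, and the second, 42 bases before the start, match the loosened AP-1 motif (AP-1 is a dimer of FOS and JUN proteins). The NF-kB letters also occurred upstream of Cd276 and in 15.7% of 32841 promoter windows of this length, and the AP-1 letters in 6.75% of windows and in no other member's. The Icosl stretch held none of these letters and was richer in G and C, at 68.8%, against 52.8% for Cd80. The interferon motif was found upstream of Cd274, Ctla4 and Btla (7.13% of all windows), and the ETS motif upstream of Cd276 and Btla (10.6%). A match is a run of letters and not a measured binding site, and no binding data were used here.

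CD86, the other ligand of CD28 and CTLA4, did not show the difference seen for Cd80. The Cd86 level was 10.04, 9.80 and 10.00 on the Dhx9.1241 arrays, against 9.64, 9.81 and 9.91 on the Rluc.713 arrays. Dhx9.1241 replicate 2 lay within the controls and the other two lay above them. The difference was 0.16 (SE 0.087, 95% interval -0.04 to 0.36), and Cd86 was not tested against Cd80.

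Icosl, the ligand gene of ICOS, stood on the other side. Its level was 8.36, 8.39 and 8.35 on the Dhx9.1241 arrays, against 8.40, 8.48 and 8.76 on the Rluc.713 arrays. The Dhx9.1241 arrays all lay below the controls, but by a margin of less than the spread of the controls, whose SD was 0.188. The difference was -0.17 (SE 0.087, 95% interval -0.37 to 0.03). Most of it came from Rluc.713 replicate 3, without which it was -0.07.

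The ligand genes of PD-1 also lay close to their controls. Cd274 had levels of 10.31, 10.17 and 10.27 on the Dhx9.1241 arrays, against 9.98, 10.16 and 10.27 on the Rluc.713 arrays, with 2 of 3 Dhx9.1241 arrays above all controls by little. Its difference was 0.11 (95% interval -0.07 to 0.29). Pdcd1lg2, which adjoins Cd274 on chromosome 19 in the same annotation, had levels of 6.25, 6.30 and 6.36 on the Dhx9.1241 arrays, against 6.38, 6.43 and 6.35 on the Rluc.713 arrays, and a difference of -0.09 (95% interval -0.20 to 0.03). The signs of these neighbouring genes differed, and both intervals held 0.

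Cd276 and Vtcn1, the ligand genes with less settled receptors, also overlapped between hairpins. Cd276 stood at 8.78, 8.94 and 8.77 in Dhx9.1241, against 9.04, 8.72 and 8.71 in Rluc.713, a difference of 0.0073 (95% interval -0.21 to 0.22). Vtcn1 stood at 7.17, 7.09 and 7.08 in Dhx9.1241, against 7.38, 7.07 and 7.16 in Rluc.713, a difference of -0.09 (95% interval -0.28 to 0.09). In both, Rluc.713 replicate 1 was the highest of the 6 arrays.

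Among the receptors, Btla had the largest difference, at 0.12 (SE 0.067, 95% interval -0.03 to 0.27). Its level was 10.38, 10.30 and 10.37 on the Dhx9.1241 arrays, against 10.11, 10.34 and 10.23 on the Rluc.713 arrays, and Rluc.713 replicate 2 lay within the Dhx9.1241 values. Cd28, the activating receptor gene, was at 6.58, 6.57 and 6.60 in Dhx9.1241, against 6.78, 6.51 and 6.44 in Rluc.713, and its difference was 0.0061 (95% interval -0.19 to 0.20). Ctla4, its inhibitory counterpart, was at 6.53, 6.64 and 6.42 in Dhx9.1241, against 6.72, 6.66 and 6.46 in Rluc.713, and its difference was -0.08 (95% interval -0.27 to 0.11). The Dhx9.1241 levels of Cd28 had an SD of 0.013 and its control levels one of 0.177. Cd28 and Ctla4 are expressed mainly by T cells, and both lay below the lower quartile of gene levels here. None of 18 measured T and NK cell marker genes was called in the limma test, while 1 was higher and 1 lower by unadjusted p (under 0.05). Over all genes, 8.5% were higher and 5.63% lower by unadjusted p. Of the T and NK markers, 2 lay at or above the median gene level.

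**Figure D2:**
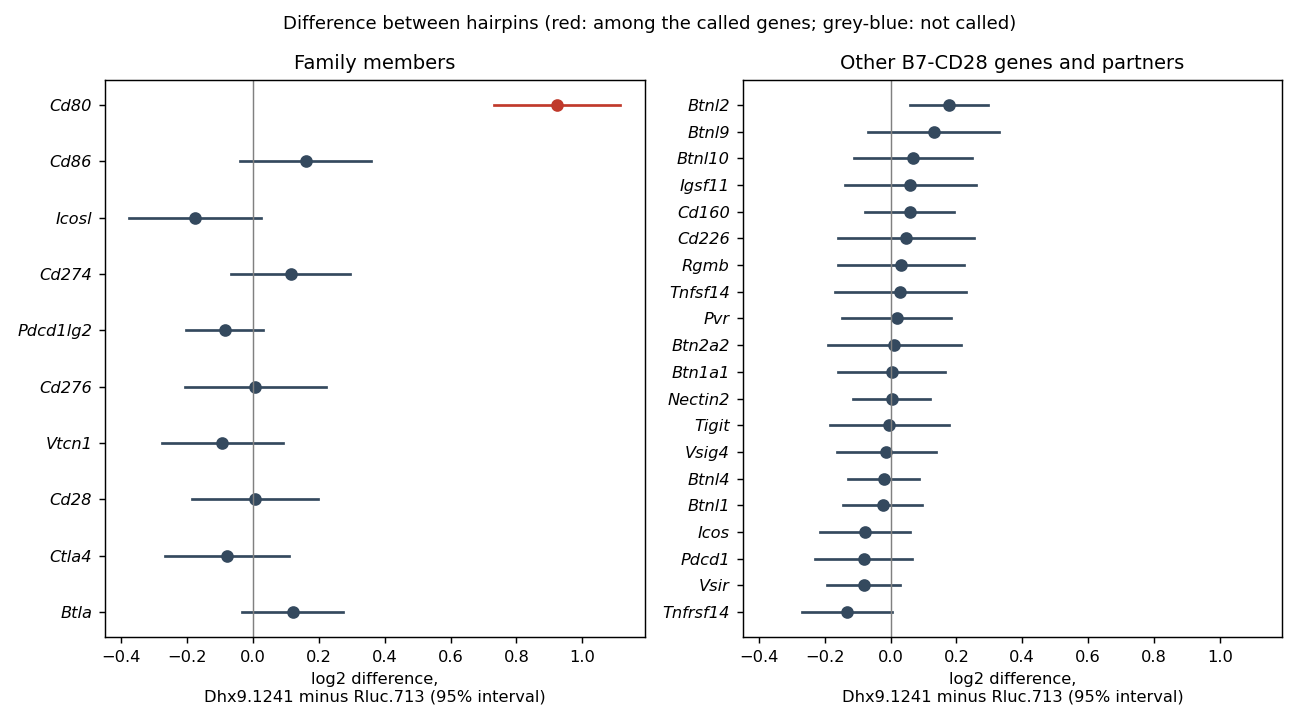
Log2 difference of Dhx9.1241 minus Rluc.713 (x axis) with its 95% interval for the 10 family members (left) and for 20 other genes of the family and its partners (right), red where the gene was among those called and grey-blue elsewhere. Cd80, at 0.92 with an interval of 0.73 to 1.12, lies apart from the other 9 members, which run between -0.17 and 0.16.

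Rluc.713 replicate 1 lay at one end of the controls for 9 of the 10 members. It was the lowest control for Cd80, Cd86, Icosl, Cd274 and Btla, and the highest for Cd276, Vtcn1, Cd28 and Ctla4. For Cd80 it lay 0.29 below the mean of the other two controls, and for Cd276 it lay 0.32 above it. The same array had the highest lower quartile over all genes, 7.30 against 7.18 to 7.25 on the other 5 arrays, and the lowest upper quartile, 10.39 against 10.44 to 10.50. Its median distance from the other controls was -0.06 for genes at or above the median gene level and 0.11 for genes below it. Icosl, below the median gene level, and Cd276, at or above it, went the other way. Without it the Cd80 difference was 0.83, Cd86 had 0.09, Cd274 had 0.04 and Btla had 0.06, and Cd276 and Cd28 had 0.11 each. Icosl had -0.25, Pdcd1lg2 had -0.09, Ctla4 had -0.02 and Vtcn1 had -0.0044. Its part in these differences beyond those values was not tested.

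The direction of Cd276, Cd28 and Vtcn1 was not settled. With each array centred on its median, Cd276 and Cd28 had -0.02 each and Vtcn1 had -0.12. After a second quantile normalization Cd276 had -0.03 while Cd28 had 0.0064. Vtcn1 had 0.0074 without Dhx9.1241 replicate 2 and Rluc.713 replicate 1 together, an alternative chosen after seeing the data. The Cd80 difference ran from 0.83 to 0.98 over 16 alternatives. Some of these, such as the level filters and the replicate block, could not move it and gave 0.92.

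**Figure D3:**
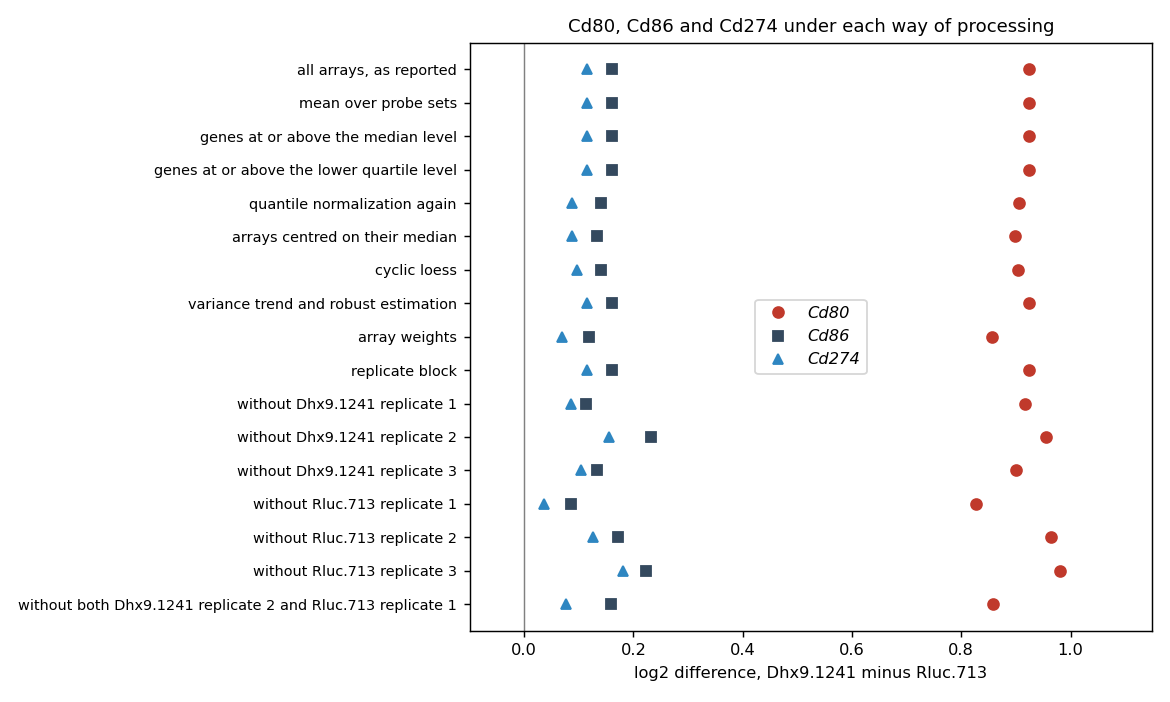
Log2 difference of Dhx9.1241 minus Rluc.713 (x axis) for Cd80 (red circles), Cd86 (grey-blue squares) and Cd274 (blue triangles) under each way of processing (rows), from all arrays at the top to the fits that leave arrays out at the bottom. Cd80 stays between 0.83 and 0.98, and Cd86 between 0.09 and 0.23.

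Genes next to the members were looked at to see whether a stretch of chromosome moved together. In the annotation, Cd80 lies on chromosome 16 between Pla1a and Timmdc1 among measured genes, and their differences were 0.04 and 0.04 (limma adjusted p = 0.899 and 0.91). Cd28, Ctla4 and Icos follow each other on chromosome 1, and Icos had -0.08 (limma adjusted p = 0.705). None of the neighbours of any member was called. Of the non-members among them, the largest differences were those of Casr beside Cd86 (0.21, limma adjusted p = 0.464) and Ric1 beside Pdcd1lg2 (0.18, limma adjusted p = 0.136).

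The remaining genes of the family and their partners were also tested, from a list of 23 of which 20 were measured. None was called in the limma test, and 1, Btnl2, was higher at an unadjusted p under 0.05, as were 8.5% of all genes. Btnl2, a butyrophilin-like gene whose product restrains T cells, had 9.119, 9.006 and 9.074 in Dhx9.1241, against 8.853, 8.887 and 8.929 in Rluc.713. Its groups did not overlap, as for 20.1% of all genes, and its difference was 0.18 (SE 0.051, limma adjusted p = 0.136). Tnfrsf14, which encodes HVEM, the ligand of BTLA, had 10.20, 10.17 and 10.07 in Dhx9.1241, against 10.26, 10.36 and 10.22 in Rluc.713, and a difference of -0.13 (SE 0.059, limma adjusted p = 0.377). Tnfrsf14 and Vsir of this list also had groups that did not overlap. The receptor genes Icos and Pdcd1 each had -0.08. The median over the list was 0.0070, against 0.0049 over all genes.

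Of 22 measured signalling genes downstream of CD28, CTLA4 and PD-1, none was called in the limma test. At an unadjusted p under 0.05, 1 was higher and 6 were lower, and the list median was -0.05. Over all genes, 8.5% were higher and 5.63% lower at that threshold. Of the 22, 16 lay at or above the median gene level, and the shares among genes that bright were not computed. The adaptor gene Grb2 had 9.85, 9.72 and 9.69 in Dhx9.1241, against 9.96, 10.04 and 10.04 in Rluc.713, a difference of -0.26 (SE 0.058, limma adjusted p = 0.0572). It passed the threshold in 7 of 16 alternatives, among them the fit without Rluc.713 replicate 1 (limma adjusted p = 0.0354, range 0.0109 to 0.208 over the alternatives). The Src family kinase gene Fyn had 11.44, 11.52 and 11.37 in Dhx9.1241, against 11.15, 11.27 and 11.27 in Rluc.713, a difference of 0.21 (SE 0.059, limma adjusted p = 0.118). For both genes the groups of arrays did not overlap, as for 20.1% of all genes. The same held for other genes of this list, such as Vav1 and Pik3cb.

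Among 31 measured regulators of B7 ligands, 1 fell, none rose and 30 were not called, and the list median was -0.0014. Over all genes, 1.07% were called lower and 2.07% higher. The gene that fell was Cmtm6, whose product keeps PD-L1 from lysosomal breakdown. Its level was 9.94, 9.88 and 9.80 in Dhx9.1241, against 10.17, 10.19 and 10.22 in Rluc.713. All Dhx9.1241 arrays lay below all controls, with a difference of -0.32 (SE 0.052, limma adjusted p = 0.0167). The Cmtm6 call was lost without Dhx9.1241 replicate 2 (limma adjusted p = 0.0703) or replicate 3 (0.0797), without Rluc.713 replicate 2 (0.069) or replicate 3 (0.0705), and in the fit blocked by replicate number (0.075). By unadjusted p (under 0.05), 7 of 31 regulators were higher and 6 lower, against 8.5% and 5.63% of all genes. Of the 31, 28 lay at or above the median gene level, and the shares among genes that bright were not computed. The receptor gene Cd40, whose product raises B7 ligands on B cells, chosen after its value was seen, had a difference of 0.24 (limma adjusted p = 0.0641). Uncalled regulators of like size went both ways: Marchf8 had 0.26, Spi1 -0.24 and Ifngr1 -0.24 (limma adjusted p = 0.248, 0.0572 and 0.0982). Over the list, 15 differences were positive and 16 negative.

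Other costimulatory and adhesion genes of B cells moved in both directions. Of 24, 2 rose, 1 fell and 21 were not called, with a list median of -0.01. Over all genes, 2.07% were called higher and 1.07% lower. Slamf7, a receptor of the SLAM family, rose to 12.28, 12.21 and 12.29 in Dhx9.1241, against 11.87, 11.92 and 11.96 in Rluc.713 (difference 0.35, SE 0.050, limma adjusted p = 0.0098). Tnfsf18, the gene of GITR ligand, which costimulates T cells, stood at 7.69, 7.78 and 7.68 in Dhx9.1241, against 7.38, 7.35 and 7.47 in Rluc.713 (difference 0.31, SE 0.055, limma adjusted p = 0.0221). Slamf1, another SLAM receptor gene, fell to 6.18, 6.20 and 6.17 in Dhx9.1241, against 6.41, 6.56 and 6.41 in Rluc.713 (difference -0.28, SE 0.055, limma adjusted p = 0.0365). The groups of arrays of all 3 genes were apart, as were those of 20.1% of all genes. Slamf1 lay below the lower quartile of gene levels, and Tnfsf18 lay below the median gene level.

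These calls were lost in several fits that left out 1 array. The Slamf7 call was lost without Dhx9.1241 replicate 1 (limma adjusted p = 0.0588) or replicate 3 (0.0583). Tnfsf18 lost its call without any 1 Dhx9.1241 array (limma adjusted p = 0.0876, 0.1 and 0.0773 for replicates 1, 2 and 3), without Rluc.713 replicate 2 (0.0945) and in the blocked fit (0.0935). Slamf1 lost its call without any 1 array other than Rluc.713 replicate 1 (limma adjusted p of 0.0813 to 0.144), in the blocked fit (0.1), after quantile normalization again (0.0539) and after cyclic loess (0.0519).

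The list of activated and memory B cell genes was included because CD80 and PD-L2 mark subsets of memory B cells in mice. Of 23 measured genes, 1 rose, 2 fell and 20 were not called, and the median was 0.03. Over all genes, 2.07% were called higher and 1.07% lower. Zbtb32, a transcriptional repressor gene that restrains memory B cell recall in mice, rose to 11.25, 11.46 and 11.15 in Dhx9.1241, against 10.48, 10.44 and 10.38 in Rluc.713. The Zbtb32 groups were apart by more than the spread in either, with a difference of 0.85 (SE 0.080, limma adjusted p = 0.00163), or 1.81-fold. Ccr6, the receptor gene for the chemokine CCL20, fell to 7.36, 7.38 and 7.33 in Dhx9.1241, against 7.95, 8.05 and 7.91 in Rluc.713, a difference of -0.61 (SE 0.053, limma adjusted p = 0.00108). Both kept their call without any 1 array, and Ccr6 lay below the median gene level.

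Zeb2, a zinc finger transcription factor gene, fell to 11.28, 11.15 and 11.28 in Dhx9.1241, against 11.49, 11.56 and 11.61 in Rluc.713, a difference of -0.32 (SE 0.058, limma adjusted p = 0.0271). Its call was lost without any 1 array other than Rluc.713 replicate 1 (limma adjusted p of 0.0856 to 0.109), and in the blocked fit (0.0833). Pdcd1lg2, the other memory marker of the family, had the difference of -0.09 given above.

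**Figure D4:**
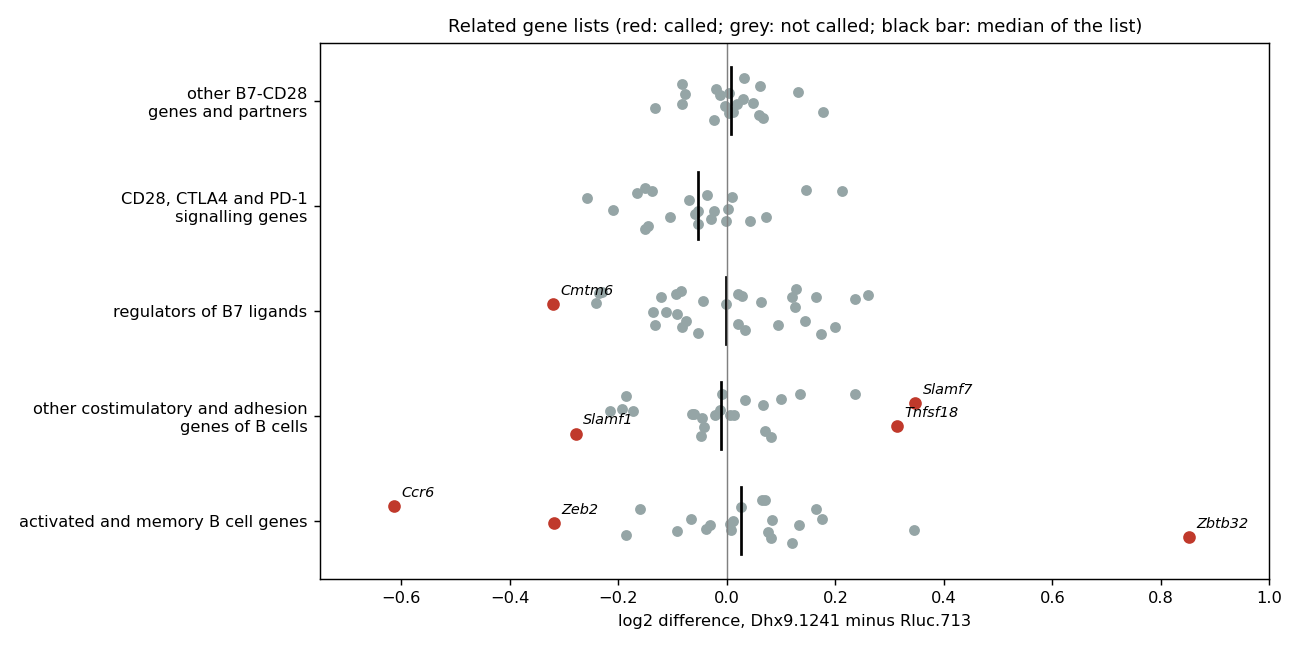
Log2 difference of Dhx9.1241 minus Rluc.713 (x axis) of every measured gene in 5 lists related to the family (rows), red and named where called, grey where not, with the list median as a black bar. Zbtb32 at 0.85 and Ccr6 at -0.61 lie farthest out, and the list medians lie between -0.05 and 0.03.

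The genes whose levels followed Cd80 most closely over the 6 arrays were named by Pearson's r among 9391 other genes at or above the median gene level. They were Brwd1, Mpzl1, Dglucy, Rcbtb1 and Rassf6, with r between 0.998 and 0.9995, and differences between hairpins of 0.55, 0.40, 0.57, 0.34 and 1.24. All 5 were called higher, and such an r mostly restates the hairpin difference that these genes share with Cd80. With the group means removed, Supt6, Cenpp, Vps54, Dnajc10 and Rspry1 were closest, with r between 0.997 and 0.999. None of these was called, and their differences ran from -0.04 to 0.22. The 6 arrays share their normalization, and no p is given for these correlations. Both sets were picked as the closest of 9391 genes on only 6 arrays. A high r is thus built into the choice, and nothing is read from it.

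The hairpin and the cell type were checked on the same arrays. Dhx9 had levels of 11.46, 11.43 and 11.38 in Dhx9.1241, against 12.40, 12.48 and 12.36 in Rluc.713 (difference -0.99, limma adjusted p = 0.000129). Sample titles name Dhx29 instead, whose difference was 0.04 (limma adjusted p = 0.857), so the groups are called by their hairpins. Of 10 measured B cell markers, 9 lay above the upper quartile of gene levels. Only 1, Vpreb3, was called and fell (-0.57, limma adjusted p = 0.000891), against 1.07% of all genes called lower. Of the 10 differences, 8 were negative and 2 positive, with a list median of -0.09. The mean log2 level of the B cell list was 12.598 to 12.677 on the Dhx9.1241 arrays and 12.678 to 12.771 on the Rluc.713 arrays. Myeloid and dendritic cells can also carry CD80. Of 17 of their markers measured, 1 rose, 4 fell and 12 were not called, with a list median of -0.01, against 3.14% of all genes called. The named ones were Lyz2 at -1.31, Csf1r at -0.45 and Flt3 at 0.45 (limma adjusted p = 0.000129, 0.016 and 0.0058). The other two that fell were Tyrobp (-0.37) and Fcer1g (-0.32), and the Csf1r call was lost without any 1 Dhx9.1241 array or without Rluc.713 replicate 2 (limma adjusted p of 0.06 to 0.0863). The mean log2 level of the myeloid list was 8.001 to 8.044 on the Dhx9.1241 arrays and 8.113 to 8.152 on the Rluc.713 arrays. Without Lyz2, left out after seeing the data, it was 7.92 to 7.96 on the Dhx9.1241 arrays and 7.95 to 7.997 on the Rluc.713 arrays, and the ranges overlapped. The mean over 16 fibroblast markers was 7.79 to 7.83 in Dhx9.1241 and 7.78 to 7.95 in Rluc.713, and 1 of them, Cav1, fell (-0.25, limma adjusted p = 0.0485, lost without any 1 array, at 0.0543 to 0.19). The part of these cells in the Cd80 difference was not tested.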

How the data were processed

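RNA of 6 samples was labelled with a 3′ in vitro transcription kit for Affymetrix arrays, per the labels' protocols. The deposited log2 values, 1 per probe set and array, were made by the authors with RMA, per the submitters' processing notes. RMA draws arrays together and tends to compress folds of dim genes. Its settings, the build and how probe sets were defined were not given in the sources used here. Values between 3.97 and 14.6 showed the scale to be log2. Detection calls were not used here, and 3 arrays a group limit the precision.

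Of 21212 probe sets, 18786 had 1 symbol in the platform annotation, 6 had several and 2420 are unnamed here. Symbols were updated by Entrez number for 18775 (GRCm38.p6 table, used for names and gene order). The brightest probe set per gene was kept, giving 18784 genes. Groups were fitted with limma 3.58.1 in R 4.3.3 (lmFit, eBayes), two-sided, adjusted by Benjamini-Hochberg over all genes, and called at an adjusted p under 0.05. The fit was tested on simulated data. Members and lists were chosen with earlier results of these data known. Named genes were the members, up to 4 called genes of each related list (or its 2 largest differences), up to 3 called markers of each cell type, the 5 genes most like Cd80 by each measure and the members' neighbours. Upstream sequences are RefSeq's (GRCm38.p6). Alternatives are given below.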

Additional observations from a re-analysis of the deposited data

How the results depend on the processing

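The counts of members called were 1 higher and 0 lower under all 16 alternatives, and the Cd80 difference ranged from 0.83 to 0.98, both as descriptions. Filters tested fewer members. The filters, the mean over probe sets, the variance trend and the replicate block could not move the Cd80 difference. The counts over all genes, 389 higher and 201 lower, were 126 to 497 and 70 to 399 without 1 array; others over 1.5 times apart were 609 and 382 for genes no dimmer than the median, 673 and 466 under the robust fit with a variance trend, 669 and 542 under array weights, 172 and 92 in the fit with the replicate block, 250 higher with arrays centred on their median, 360 lower after quantile normalization again and 345 lower after cyclic loess. The share of calls that were higher was 65.9%, and 55.2% with array weights. Same-numbered arrays had correlated deviations of -0.27, -0.34 and 0.24, so the numbers were not taken as pairs. Across numbers, Dhx9.1241 replicate 2 had 0.48 with Rluc.713 replicate 1 and -0.37 with Rluc.713 replicate 3. The other values across numbers ran from -0.26 to 0.23. With 3 arrays a group, these values cannot exclude a pairing. The block left the counts of members called at 1 and 0.

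Without 1 array, the related lists had ranges of 0 to 1 lower for signalling genes, 0 to 1 higher and 0 to 3 lower for B7 regulators, 0 to 3 higher and 0 to 3 lower for costimulatory genes, and 1 to 2 higher and 1 to 2 lower for memory genes. At or above the median level, 1 family partner and 1 signalling gene were higher, 2 signalling genes lower, 2 regulators higher and 4 lower, and 2 memory genes higher and 1 lower. Ccr6, Tnfsf18 and Slamf1 were dimmer and were not tested there. At or above the lower quartile, 2 signalling genes were lower, 1 regulator higher and 2 lower, and 0 costimulatory genes lower, with Slamf1 not tested. Quantile normalization again and cyclic loess each gave 2 signalling genes and 4 regulators lower. Variance trend and robust estimation gave 1 signalling gene higher and 2 lower, 1 regulator higher and 5 lower, 3 costimulatory genes lower and 2 memory genes higher. Array weights gave 2 signalling genes lower, 2 regulators higher and 4 lower, 3 costimulatory genes lower and 2 memory genes higher. The replicate block gave 0 regulators lower, 1 costimulatory gene higher and 0 lower, and 1 memory gene lower. Leaving out Dhx9.1241 replicate 2 and Rluc.713 replicate 1 together, chosen after seeing the data, gave 1 costimulatory gene higher. Counts over all genes were lower without 5 of the arrays and higher without Rluc.713 replicate 1 (497 and 399). Filters test fewer genes; the cause of the other shifts was not tested.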
